A study of Mus musculus with 46 samples.

Results

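Binding of 3 transcription factors around the clock genes Nr1d1, Per1 and Dbp was described in mouse liver from chromatin immunoprecipitation and sequencing (ChIP-seq). Every peak of the 42 ChIP libraries that overlapped 1 of 3 windows of the mm9 assembly was taken. The windows were chr11:98575000-98690000 for Nr1d1 (115 kb), chr11:68855000-68975000 for Per1 (120 kb) and chr7:52910000-53020000 for Dbp (110 kb). Overlapping peaks of the 42 libraries, sharing 1 bp or more, became 1 region, and regions were numbered along each window from its lower coordinate. The windows held 54 of the 155509 regions of the series, of which 20 lay in the Nr1d1 window, 26 in the Per1 window and 8 in the Dbp window. They held 821 of 1358920 peaks. A window also spans neighbouring genes, and mm9 gene positions were not used here, so each region is assigned to a window and not to a gene, exon, intron or start site.

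All mice were wild-type CD-1 males injected with 3 mg/kg TCPOBOP, an agonist of the nuclear receptor CAR, or with the vehicle of 1% DMSO in corn oil. RXRa (RXR in what follows) was precipitated 3 h later from 3 TCPOBOP and 3 vehicle livers of mice aged 8 weeks. CEBPa and CEBPb were precipitated at 3 h from another 3 TCPOBOP and 3 vehicle livers, both factors from the same livers, of mice aged 7 weeks. At 27 h all 3 factors were precipitated from the same 4 TCPOBOP livers (D1 to D4) and 4 vehicle livers (C1 to C4) of mice aged 8 weeks. Livers of both times were taken at the same hour of the late morning, 24 h apart, so other phases of the daily cycle were not sampled. Each library came from whole liver of 1 mouse, and the deposited lists hold no expression values, so the cell types in the tissue were not tested.

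The molecular clock is a feedback loop in which the activators BMAL1 and CLOCK switch on genes of their own repressors through E-box sequences. Nr1d1 encodes REV-ERBa, a nuclear receptor that represses Bmal1 and many metabolic genes, Per1 encodes a PERIOD protein that represses BMAL1 and CLOCK, and Dbp encodes a PAR bZIP factor that passes the rhythm on to liver output genes. RXR is the partner with which CAR and further nuclear receptors bind DNA. CEBPa and CEBPb belong to the bZIP family and set much of the gene programme of hepatocytes.

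The promoters of the 3 genes are shown because they differ in whether they hold the sequence elements searched for here, which are of kinds that such factors recognise. They come from RefSeq on GRCm38.p6, a later build than that of the peaks, and span 250 bases before to 50 bases after an annotated start. All 3 genes were matched, with 4 promoters in all because Per1 has another annotated start. Capitals mark the E-box CACGTG, the CEBP-type motif TTGCNNAA and the receptor motif AGGTCA, searched on both strands. No marked motifs overlap in these promoters.
Nr1d1 promoter (minus strand): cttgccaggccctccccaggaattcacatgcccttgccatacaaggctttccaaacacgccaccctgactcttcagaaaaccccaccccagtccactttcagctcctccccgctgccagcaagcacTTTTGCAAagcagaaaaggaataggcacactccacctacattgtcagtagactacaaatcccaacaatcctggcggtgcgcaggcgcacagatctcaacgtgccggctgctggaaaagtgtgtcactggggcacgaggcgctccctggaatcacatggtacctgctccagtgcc
Per1 promoter, first start (plus strand): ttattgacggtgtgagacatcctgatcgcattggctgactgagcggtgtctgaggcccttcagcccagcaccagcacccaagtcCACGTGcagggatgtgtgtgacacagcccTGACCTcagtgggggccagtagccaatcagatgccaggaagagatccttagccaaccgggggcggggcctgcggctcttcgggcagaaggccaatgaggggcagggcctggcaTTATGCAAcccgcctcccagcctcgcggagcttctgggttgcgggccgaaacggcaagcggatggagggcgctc
Dbp promoter (plus strand): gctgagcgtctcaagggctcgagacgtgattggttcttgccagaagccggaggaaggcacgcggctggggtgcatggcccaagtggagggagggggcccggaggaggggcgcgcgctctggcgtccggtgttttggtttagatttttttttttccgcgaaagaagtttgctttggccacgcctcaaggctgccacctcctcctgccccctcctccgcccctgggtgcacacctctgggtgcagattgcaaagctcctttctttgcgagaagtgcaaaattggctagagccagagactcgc

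The Nr1d1 promoter held 1 CEBP-type motif, TTTTGCAA, at bases 127 to 134 of the printed sequence. The first Per1 promoter held all 3 kinds of motif, the E-box at bases 85 to 90, the receptor motif as its reverse complement TGACCT at bases 114 to 119, and TTATGCAA at bases 227 to 234. None of the 3 motifs was found in the Dbp promoter or in the promoter of the other Per1 start. Of all 32851 RefSeq promoters of this length, 7.15% held CACGTG, 10.8% held TTGCNNAA and 16.3% held AGGTCA. Guanine and cytosine made up 56.3% of the Nr1d1 promoter, 63.3% of the first Per1 promoter and 60.3% of the Dbp promoter, against a median of 52.7% over all promoters. In the GRCm38 annotation Nr1d1 overlaps Thra, which encodes a thyroid hormone receptor, Dbp overlaps Sphk2, and Per1 lies between Vamp2 and Hes7. Where the mm9 peaks stand relative to these starts was not determined.

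The lists differed in length across the series, which matters for any count of livers with a peak. RXR lists held 22619 to 36148 peaks at 27 h and 22117 to 52727 at 3 h, and CEBPa lists 20396 to 35663 at 27 h and 24273 to 35196 at 3 h. CEBPb lists held 39275 to 55513 peaks at 27 h and 11899 to 22984 at 3 h, so the ranges of the CEBPb lists did not overlap. The RXR libraries of both times share a sequencing lane in the labels, whereas for the CEBP factors the 27 h libraries were on another flow cell than the 3 h libraries and their mice were older. The 4 input controls, of sonicated chromatin without immunoprecipitation, held 7 to 1480 peaks, none of them in the 3 windows. The lists give the position of a peak and no height, and no read depth, so binding too weak to be called cannot be told apart from none.

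The 54 regions ranged from those bound by all 3 factors in every liver to those called once. All 3 factors had a peak, in at least 1 liver each, in 14 of the 54 regions (25.9%), against 16.2% of all regions of the series. A region of the windows had a peak in a median of 12 of the 42 lists, against 3 over the series, and 5 of the 54 (9.26%) had a peak in 1 list alone, against 35.7%. RXR alone was found in 17 regions (31.5%, against 27% of the series), CEBPa with CEBPb in 10 (18.5%, against 22.6%), CEBPb alone in 7 (13%, against 19.7%), RXR with CEBPb in 5 (9.26%, against 3.76%) and CEBPa alone in 1 (1.85%, against 10% of the series). RXR with CEBPa but without CEBPb was found in none of the 54, and in 0.741% of the series. The windows' peaks were 179 to 1249 bp wide with a median of 303 bp, against 292 bp over all peaks. These shares are descriptions of windows chosen around known genes and carry no test.

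The Nr1d1 window had the most regions that RXR bound in every liver, and in 3 of its regions the peaks of the 3 factors fell together in nearly every liver. Region 13 (chr11:98644264-98645193) had a peak in all 42 lists. Region 10 (chr11:98634869-98635758) had a peak in 41 lists, lacking CEBPb in 1 vehicle liver of 3 h, and region 17 (chr11:98656147-98657091) also in 41, lacking RXR in 1 vehicle liver of 27 h. RXR had a peak in all 14 livers in 5 regions of this window, CEBPa in 3 and CEBPb in 2. Over the 3 windows such regions made up 13% for RXR, 16.7% for CEBPa and 13% for CEBPb, against 7.92%, 7.06% and 5.15% of all regions of the series. These 3 regions thus held the receptor and both bZIP factors in nearly every liver, whatever the treatment or time.

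Other regions of the Nr1d1 window separated the factors. Region 8 (chr11:98616053-98616585) had RXR in all 14 livers and CEBPa in none, while CEBPb had a peak in 4 of 4 TCPOBOP livers and 2 of 4 vehicle livers at 27 h and in none of the 6 livers of 3 h. Region 11 (chr11:98636384-98637304), which begins 625 bp beyond the end of region 10, likewise had RXR in all 14 livers and CEBPa in none, with CEBPb in all 8 livers of 27 h and none of the 6 of 3 h. Region 19 (chr11:98670596-98671630) was the reverse, with CEBPa in 13 livers, CEBPb in 12 and RXR in 6. Its RXR peaks were in 3 of 4 TCPOBOP livers and 1 of 4 vehicle livers at 27 h, and in 1 of 3 of each at 3 h. Regions 1 (chr11:98579570-98579930) and 7 (chr11:98603708-98604025) had CEBPb in all 8 livers of 27 h and none of 3 h, CEBPa in 7 livers each, and no RXR.

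**Figure D1:**
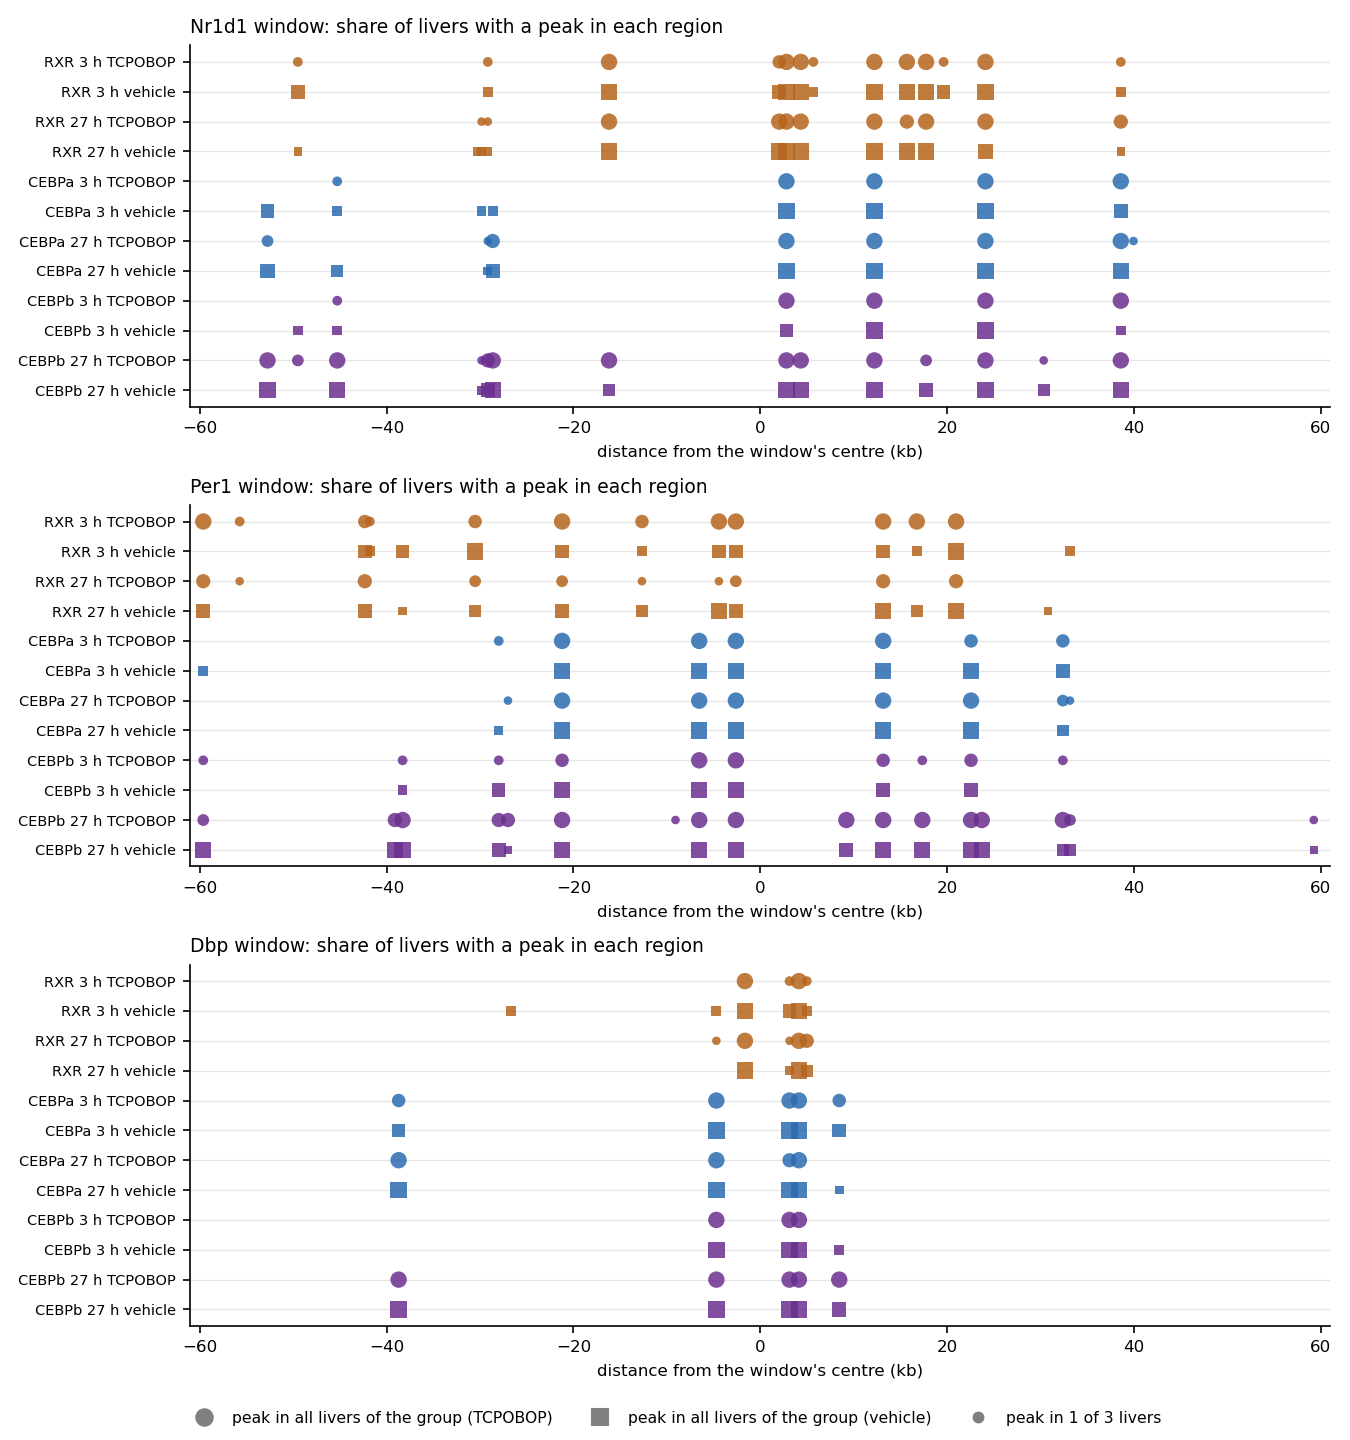
Map of the 54 regions, with the distance from each window's centre in kb on the horizontal axis and a row for each factor, time and treatment. Circles stand for TCPOBOP livers and squares for vehicle livers, and their area grows with the share of livers of the group that had a peak. Nr1d1 region 13 and Dbp region 6 had a full-size mark in all 12 rows, and the CEBPb rows of 27 h held more marks than those of 3 h.

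The Per1 window had the largest number of regions but no region with RXR in every liver. Its most constant regions were bound by both CEBP factors, with RXR in some of the livers. Region 15 (chr11:68912024-68912767) had CEBPa and CEBPb in all 14 livers and RXR in 10, region 17 (chr11:68927772-68928564) had CEBPa in 14 and CEBPb and RXR in 12 each, and region 10 (chr11:68893531-68894051) had CEBPa in 14, CEBPb in 13 and RXR in 10. The window also held regions with both CEBP factors in most livers and no RXR. Region 13 (chr11:68907982-68908964) had CEBPa and CEBPb in all 14 livers and RXR in none, and its peaks had a mean width percentile of 89.4, the highest of the 54 regions. The width percentile is the rank of a peak's width within its own list, from 0 to 100, and was used because the lists give no height. Region 21 (chr11:68936908-68938248) had CEBPa in 13 livers, CEBPb in 12 and RXR in none.

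RXR in the Per1 window was bound most steadily at region 20 (chr11:68935683-68936263), named here after its values were seen, with 13 of 14 livers and no CEBP peak. Region 1 (chr11:68855219-68855521), at the edge of the window, had RXR in 9 livers, CEBPb in 7 and CEBPa in 1, in narrow peaks with a mean width percentile of 13.4. Region 14 (chr11:68910362-68910805), between regions 13 and 15, had RXR in 10 livers and neither CEBP factor. Region 22 (chr11:68938584-68938869), 335 bp beyond region 21, had CEBPb in all 8 livers of 27 h and in no other list.

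The Dbp window had the fewest regions, of which regions 3 to 8 lay within 13.8 kb. Region 6 (chr7:52968760-52969533) had a peak in all 42 lists, the only such region here besides Nr1d1 region 13. Its neighbour region 5 (chr7:52967778-52968507), 252 bp before it, had CEBPb in 14 livers and CEBPa in 13, but RXR in 5. Region 3 (chr7:52959860-52960757) had both CEBP factors in all 14 livers and RXR in 2. Region 4 (chr7:52962789-52963942), between them, had RXR in all 14 livers and neither CEBP factor in any. The Dbp window thus held an RXR region, CEBP regions and a shared region side by side. Region 1 (chr7:52926089-52926490) had CEBPa in 12 livers and CEBPb in the 8 livers of 27 h, and region 8 (chr7:52973242-52973686) had CEBPa in 5, CEBPb in 8 and RXR in none.

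The comparison of TCPOBOP with vehicle asks whether activation of CAR moved these factors at the clock genes. A region was called gained when every TCPOBOP liver and no vehicle liver of a comparison had a peak, and lost in the reverse case. For RXR at 3 h, 1 of the 33 regions with a peak was gained and none was lost, against 0.292% gained and 0.113% lost of all RXR regions of that comparison. The gained region was Per1 region 1, with RXR peaks of 208, 213 and 230 bp in the 3 TCPOBOP livers and no peak in the 3 vehicle livers. With 3 livers a side Fisher's exact test (two-sided) cannot give less than 0.1, which was its p there, and its adjusted p over all regions was 1. At 27 h the same region had an RXR peak in 3 of 4 TCPOBOP livers and 3 of 4 vehicle livers. With each list shortened to its 22117 widest peaks no region was gained or lost, and without the vehicle liver A1, whose list of 52727 peaks was the longest, 3 were.

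No region of the windows was gained or lost for RXR at 27 h, of 31 regions with a peak, against 0.286% gained and 0.234% lost over all regions. The largest difference was at Per1 region 14, with an RXR peak in 1 of 4 TCPOBOP livers (D4, 248 bp) and 4 of 4 vehicle livers (192 to 233 bp), an exact Fisher p of 0.143. Without the TCPOBOP liver D4 it would count as lost, and with each list shortened to its 22619 widest peaks the difference had the other sign. At 3 h that region had RXR in 3 of 3 TCPOBOP livers and 2 of 3 vehicle livers. Across the 31 regions at 27 h, RXR had a peak in more TCPOBOP than vehicle livers in 5, in fewer in 12 and in as many in 14. At 3 h it was in more TCPOBOP livers in 8, in fewer in 8 and in as many in 17. These counts carry no test, and the same shares over all RXR regions are not given here. At 27 h the RXR lists held 22619 to 32882 peaks in TCPOBOP livers and 26125 to 36148 in vehicle livers. Whether list length bears on the counts was not tested.

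The CEBP factors were not gained or lost anywhere in the windows. For CEBPa at 3 h none of 21 regions was gained (0.32% over all regions) or lost (0.558%), and at 27 h none of 23 was gained (0.0383%) or lost (0.207%). For CEBPb at 3 h none of 20 regions was gained (0.6%) or lost (0.0811%), and at 27 h none of 36 was gained (0.362%) or lost (0.0373%). At 27 h the only pattern that reaches an unadjusted exact Fisher p under 0.05, at 0.0286, is a peak in all 4 livers of 1 treatment and in none of the other, so 0 regions of the windows reached it for any of the 3 factors. At the background shares, fewer than 1 gained or lost region would be found among 36 regions. CEBPb at 27 h had as many TCPOBOP as vehicle livers with a peak in 25 of its 36 regions, more TCPOBOP livers in 7 and fewer in 4. These counts carry no test, and the same shares over all CEBPb regions are not given here.

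The number of peaks per liver in each window gave a value for each window as a whole. In the Nr1d1 window RXR had 10, 8, 9 and 9 peaks in TCPOBOP livers and 9, 8, 8 and 11 in vehicle livers at 27 h, means of 9 ± 0.816 and 9 ± 1.41 (SD, n = 4 each). In the Per1 window RXR had 6, 6, 4 and 5 peaks in TCPOBOP livers and 4, 10, 8 and 10 in vehicle livers at 27 h, means of 5.25 ± 0.957 and 8 ± 2.83 (SD, n = 4 each). That was the largest difference of the 18 tests, 3 windows by 3 factors by 2 times, and the vehicle liver C1 lay within the TCPOBOP range. It gave a two-sided exact permutation p of 0.171 and an adjusted p of 1 over all 13057 windows of the genome of the same width. With each of the 8 livers left out in turn the difference was -4.08 to -2.08 peaks. The value of -4.08 came without C1, the only vehicle liver within the TCPOBOP range. Leaving it out separates the groups by that choice, which fixes the exact permutation p at 0.0286, the smallest possible. That p therefore carries no weight. At 3 h the difference had the other sign, with 11, 9 and 9 RXR peaks in TCPOBOP livers and 9, 4 and 9 in vehicle livers (exact permutation p = 0.6). That difference of 2.33 peaks was 0.667 without the vehicle liver A3 and reached 3.17 with another liver left out.

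The Dbp window held fewer peaks per liver on average than the other two at 27 h, for each factor and treatment. RXR had 4, 5, 2 and 3 peaks in TCPOBOP livers and 2, 4, 3 and 4 in vehicle livers at 27 h, CEBPa 3, 4, 4 and 4 against 5, 4, 5 and 4, and CEBPb 5 in each TCPOBOP liver against 5, 5, 4 and 5. The adjusted p of every one of the 18 tests was 1. The smallest exact permutation p that the design allows is 0.1 at 3 h and 0.0286 at 27 h.

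**Figure D2:**
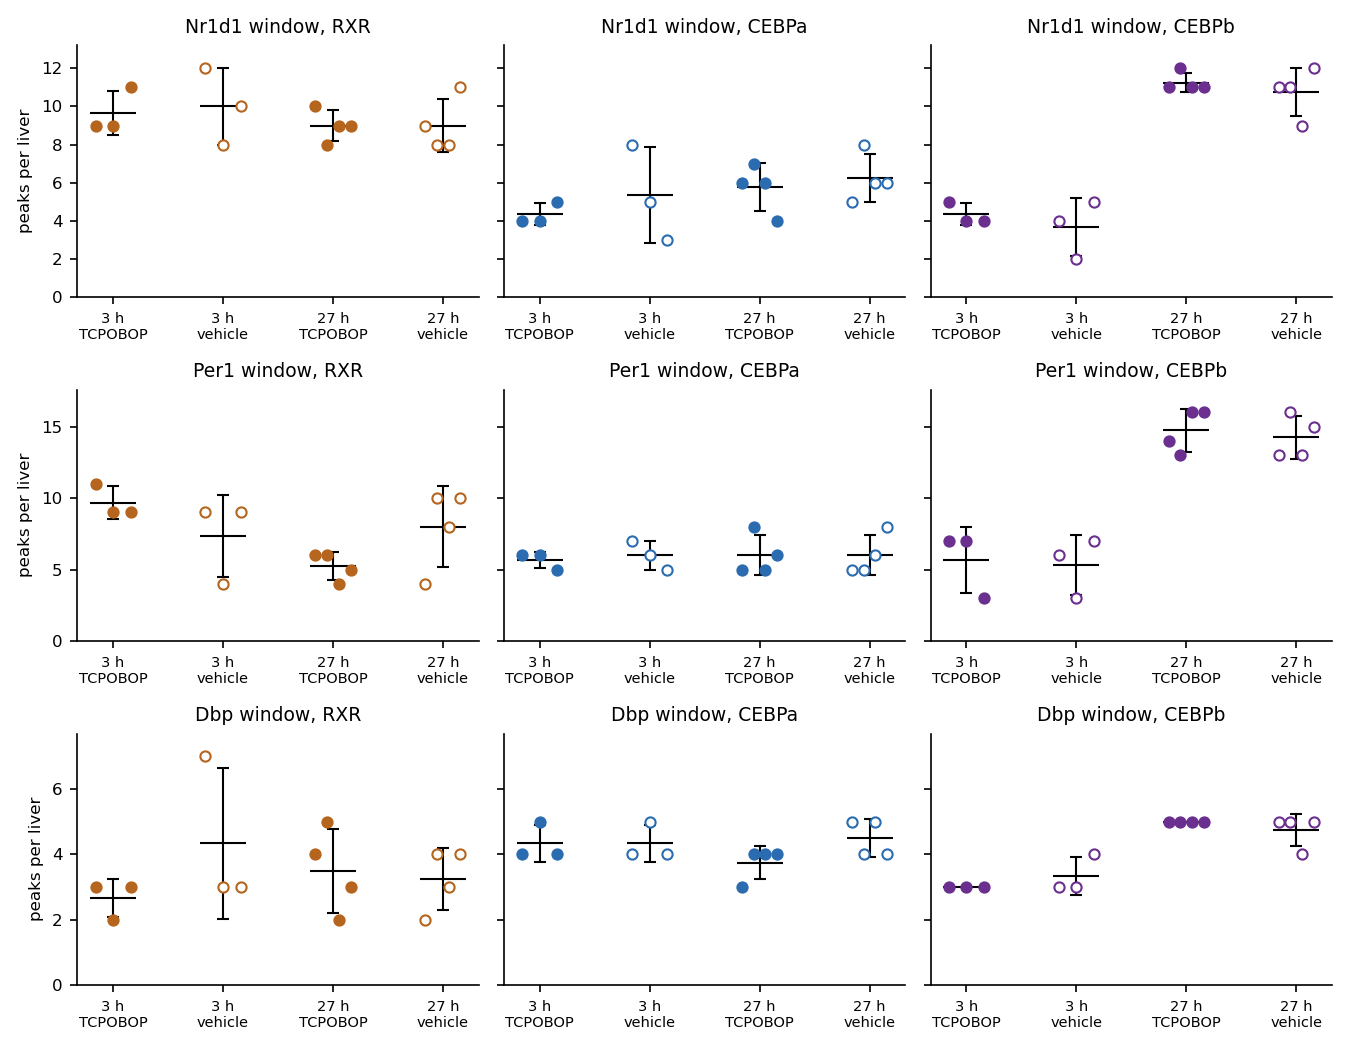
Peaks per liver in the 3 windows (rows) for RXR, CEBPa and CEBPb (columns), by time and treatment. Filled points are TCPOBOP livers, open points vehicle livers, and bars the mean and SD of 3 livers at 3 h or 4 livers at 27 h. TCPOBOP and vehicle livers overlap in every panel. CEBPb has more peaks at 27 h than at 3 h in the Nr1d1 window, with 9 to 12 against 2 to 5. Its lists of 27 h were also longer, and the part of list length in this was not tested. Per 10000 peaks of the list (not drawn), CEBPb means in TCPOBOP and vehicle livers there were 2.24 and 2.43 at 27 h, and 2.11 and 2.05 at 3 h. In the Per1 window they were 2.95 and 3.23 at 27 h, and 2.65 and 3.01 at 3 h. In the Dbp window they were 0.996 and 1.07 at 27 h, and 1.47 and 2 at 3 h.

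Peak widths gave a graded value where a region was called in every liver of a comparison. Where a list had more than 1 peak in a region, as happened in 6 of the 54 regions, the width of the widest was taken. For RXR at 3 h, 10 regions of the windows were so called, and the TCPOBOP width percentiles lay below all vehicle ones in 2 of them and above in none, against 3.62% lower and 5.08% higher over all such regions. Both were in the Nr1d1 window. At region 13 the RXR peaks were 531, 443 and 450 bp wide in TCPOBOP livers and 597, 471 and 647 bp in vehicle livers, which overlap in bp but not in percentile, with means of 78.1 and 87.7. At region 11 they were 306, 320 and 325 bp in TCPOBOP livers and 588, 316 and 411 bp in vehicle livers, with mean percentiles of 47.3 and 68.9, and again the widths overlapped in bp. At 27 h none of 8 RXR regions was higher or lower throughout, against 1.7% higher and 2.51% lower over all regions, and region 13 had overlapping percentiles.

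For CEBPa at 3 h, 2 of 10 regions were lower in every TCPOBOP liver and none was higher, against 5.55% lower and 4.4% higher over all regions. They were Nr1d1 regions 13 and 17. At region 17 the CEBPa peaks were 272, 262 and 240 bp wide in TCPOBOP livers and 329, 376 and 397 bp in vehicle livers, a difference of -36.2 percentile points. At 27 h the difference at region 17 had the other sign, with CEBPa peaks averaging 337 ± 45.9 bp in TCPOBOP livers and 305 ± 21.7 bp in vehicle livers (SD, n = 4 each), and the groups overlapped. At 27 h, 1 of 12 CEBPa regions was lower throughout and none higher, against 2.45% lower and 0.791% higher over all regions. It was Nr1d1 region 19, with CEBPa peaks of 261, 277, 269 and 256 bp in TCPOBOP livers and 344, 320, 360 and 355 bp in vehicle livers, means of 266 ± 9.22 and 345 ± 17.8 bp (SD, n = 4 each). Its exact permutation p of 0.0286 is the smallest possible, and the adjusted p over all regions was 0.867. Region 19 had CEBPb peaks in the same livers of 382, 353, 369 and 388 bp with TCPOBOP and 338, 349, 366 and 401 bp with vehicle, which overlapped.

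For CEBPb none of 7 regions was higher or lower throughout at 3 h, against 6.99% higher and 2.56% lower over all regions, and none of 20 at 27 h, against 3.08% higher and 0.896% lower. The widest gap was at Nr1d1 region 11, where CEBPb peaks of 27 h were 483, 673, 529 and 538 bp wide in TCPOBOP livers and 260, 198, 247 and 624 bp in vehicle livers. The vehicle liver C4 fell within the TCPOBOP range while the other 3 vehicle livers lay below it. The difference was 47.1 percentile points (exact permutation p = 0.114, adjusted p = 0.799). RXR peaks of the same region were 323, 297, 265 and 260 bp in those TCPOBOP livers and 271, 265, 290 and 342 bp in those vehicle livers, which overlapped. At Nr1d1 region 10 the RXR peaks of 27 h were 388, 376, 198 and 289 bp in TCPOBOP livers and 278, 816, 722 and 860 bp in vehicle livers, again with 1 vehicle liver, C1, within the TCPOBOP range (exact permutation p = 0.114, adjusted p = 0.779).

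Region 4 of the Dbp window, bound by RXR alone, had RXR peaks of up to 1082 bp. It held 19 peaks in 14 lists. The lists of the vehicle livers A1, A3, C2 and C3 and of the TCPOBOP liver D2 had more than 1 peak there. Only the widest is given for each, so a narrow value need not mean a narrower bound stretch. At 3 h they were 951, 522 and 1082 bp in TCPOBOP livers and 445, 379 and 931 bp in vehicle livers, and at 27 h 551, 546, 554 and 752 bp in TCPOBOP livers and 349, 412, 413 and 825 bp in vehicle livers. The groups overlapped at both times through 1 wide vehicle peak, in liver A4 at 3 h and C4 at 27 h (exact permutation p = 0.3 and 0.114). At Dbp region 6 the RXR peaks of 27 h were 433, 664, 224 and 385 bp in TCPOBOP livers and 258, 301, 274 and 289 bp in vehicle livers, overlapping because the TCPOBOP liver D3 had the narrowest peak of the 8 (exact permutation p = 0.143). No width difference in the windows passed an adjusted p of 0.05 by the exact permutation test. The smallest adjusted p in the windows was 0.771, at Nr1d1 region 7 for CEBPb at 27 h. Over all regions of the series the smallest was 0.678, for RXR at 27 h, so no region passed anywhere. The absence is therefore not particular to the windows.

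**Figure D3:**
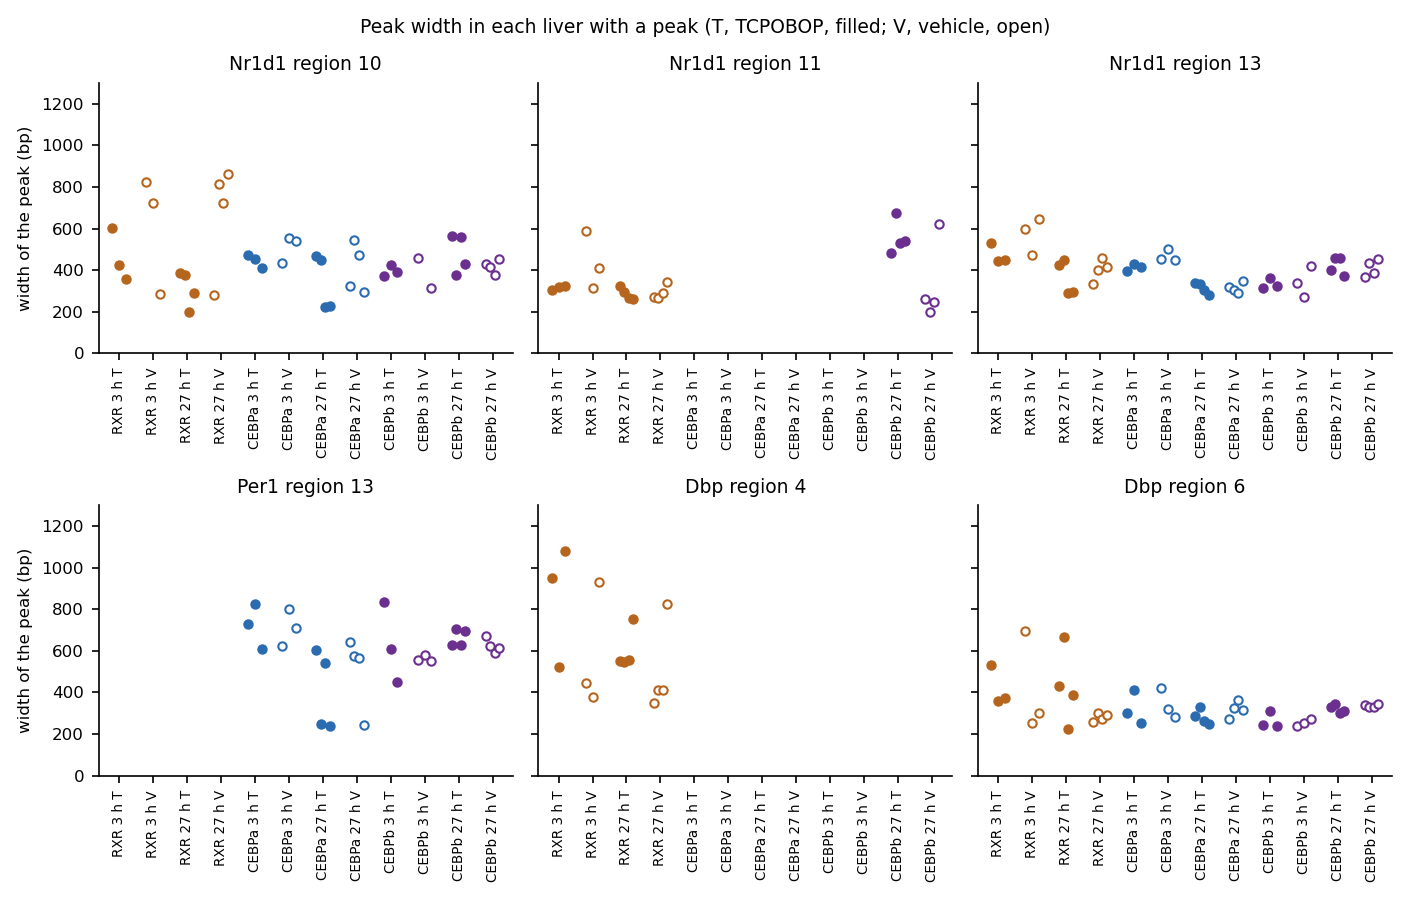
Width in bp of the widest peak of each liver at 6 regions, by factor, time and treatment, with TCPOBOP livers filled and vehicle livers open. Nr1d1 regions 10 and 13 and Dbp region 6 carry all 3 factors, Nr1d1 region 11 carries RXR at both times and CEBPb at 27 h alone, Per1 region 13 the CEBP factors alone and Dbp region 4 RXR alone. TCPOBOP and vehicle peaks of 27 h overlap in each panel.

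The comparison of 27 h with 3 h sets the same clock hour on successive days side by side, over both treatments. For RXR, 0 of 36 regions were called in more livers at 27 h and 0 in fewer by Fisher's exact test with Benjamini-Hochberg adjustment, against 0% and 0% of all 74229 RXR regions. The smallest adjusted p over all RXR regions was 1 and over all CEBPa regions 0.24, so these counts of 0 show nothing about whether the regions differed. None of the 36 had an unadjusted p under 0.05, against 1.29% of all RXR regions. The nearest was Nr1d1 region 16, named after its values were seen, with an RXR peak in 0 of 8 livers at 27 h and 3 of 6 at 3 h (Fisher's exact p = 0.0549). CEBPa gave 0 of 25 regions in either direction, against 0% and 0% of all CEBPa regions, and again none at an unadjusted p under 0.05, against 2.16%. Of the CEBPa regions, Dbp region 8 had a peak in 1 of 8 livers at 27 h and 4 of 6 at 3 h, and Nr1d1 region 7 in 6 of 8 at 27 h and 1 of 6 at 3 h.

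CEBPb differed, with 5 of 36 regions in more livers at 27 h and 0 in fewer, against 2.04% more and 0% fewer of all 96825 CEBPb regions. The 5 were Nr1d1 regions 1, 7 and 11, Per1 region 22 and Dbp region 1, each with a CEBPb peak in 8 of 8 livers at 27 h and 0 of 6 at 3 h (Fisher's exact p = 0.000333, adjusted p = 0.0163). At an unadjusted p under 0.05, 14 of the 36 (38.9%) were in more livers at 27 h, against 17.3% of all CEBPb regions in either direction. These shares do not compare like regions, since a region with a CEBPb peak in few livers cannot reach such p values. Of all regions of the series 35.7% had a peak in 1 list alone, against 9.26% of the windows' regions. Whether the windows exceed regions found in as many lists was not tested. The CEBPb lists of 27 h were also the longer ones, and time cannot be told apart from flow cell and age for this factor. In vehicle livers alone, 4 against 3, none of 35 regions passed the adjusted threshold. The smallest adjusted p over all CEBPb regions was then 0.346, so this count of 0 shows nothing about the windows. Of the 35, 8 (22.9%) had an unadjusted Fisher's exact p under 0.05, against 8.25% of all regions.

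When every CEBPb list was shortened to its 11899 widest peaks, none of the 18 regions that kept a peak passed the adjusted threshold. The smallest adjusted p over all CEBPb regions was then 0.0935, so no region of the series passed it either. Of the 18 regions, 3 (16.7%) had an unadjusted p under 0.05, against 4.79% of all regions. Nr1d1 region 11 was 1 of these, with a peak in 5 of 8 livers at 27 h and 0 of 6 at 3 h (Fisher's exact p = 0.031). The other 2, named after their values were seen, were Nr1d1 region 19, with 8 of 8 and 0 of 6 (Fisher's exact p = 0.000333), and Per1 region 24 (chr11:68947076-68947739), with 6 of 8 and 0 of 6 (Fisher's exact p = 0.00966). Nr1d1 regions 1 and 7, Per1 region 22 and Dbp region 1 had no peak at either time in the shortened lists, since none of their peaks was among the 11899 widest of its list. At Nr1d1 region 19 the full lists held CEBPb peaks of 338 to 401 bp in 8 of 8 livers at 27 h and of 206 to 249 bp in 4 of 6 livers at 3 h.

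**Figure D4:**
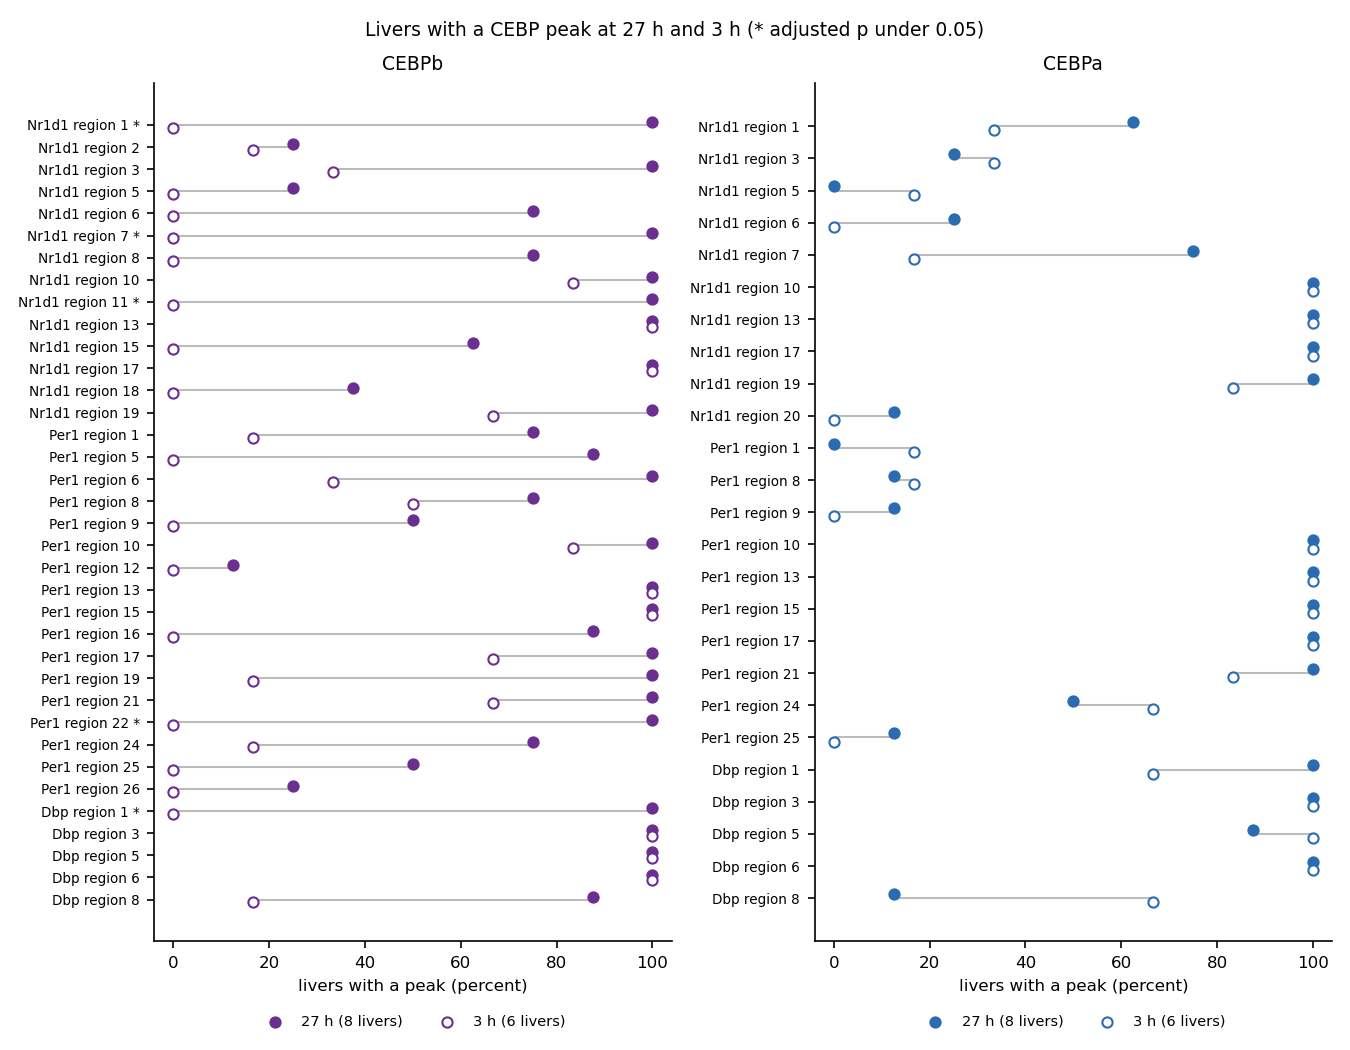
Percent of livers with a CEBPb peak (left) and a CEBPa peak (right) in each region of the windows, with filled points for the 8 livers of 27 h and open points for the 6 livers of 3 h. Asterisks mark the 5 CEBPb regions with an adjusted p under 0.05. CEBPb was in more livers at 27 h in most regions that were not already bound in all livers, while CEBPa differed in both directions.

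Because all 3 factors were precipitated from the same 8 livers at 27 h, their peaks were also counted within each liver. Over the 3 windows, 37 to 40 regions had a peak of any factor in a TCPOBOP liver and 34 to 43 in a vehicle liver. All 3 factors met in 7, 6, 7 and 7 regions in the TCPOBOP livers D1 to D4 and in 6, 5, 7 and 9 in the vehicle livers C1 to C4. RXR was found with CEBPa but without CEBPb in 0 regions of any of the 8 livers, and with CEBPb but without CEBPa in 2 to 4 regions in TCPOBOP livers and 2 to 6 in vehicle livers. The longer CEBPb lists of 27 h stand beside that absence, and their part in it was not tested. Counts within each liver, here and below, carry no test. The same shares over all regions of the series are not given, so these counts have no background.

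In the Nr1d1 window all 3 factors met in 3 to 4 regions per TCPOBOP liver and 2 to 4 per vehicle liver, in the Per1 window in 1 to 2 and 2 to 3, and in the Dbp window in 1 to 2 of either treatment. CEBPb alone was most frequent in the Per1 window, with 8, 5, 9 and 10 regions in the TCPOBOP livers and 7, 9, 5 and 5 in the vehicle livers. RXR alone was in 6 to 9 regions of the 3 windows per TCPOBOP liver and 7 to 12 per vehicle liver. The ranges of the groups overlapped for each of these combinations. At 3 h CEBPa and CEBPb shared 12, 12 and 9 regions in the TCPOBOP livers and 12, 8 and 12 in the vehicle livers.

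**Figure D5:**
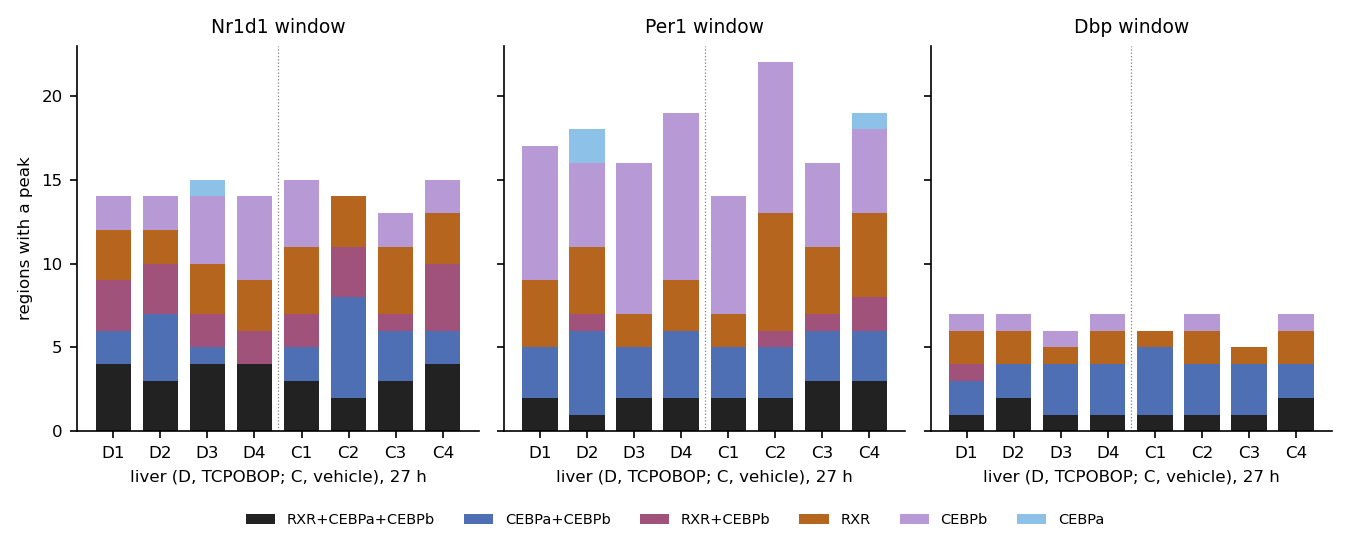
Number of regions per liver at 27 h by the factors that had a peak there, stacked, for the 3 windows, with TCPOBOP livers D1 to D4 left of the dotted line and vehicle livers C1 to C4 right of it. Regions with all 3 factors number 1 to 4 in every bar, and the Per1 bars hold the most regions with CEBPb alone.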

How the data were processed

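ChIP-seq was made from 42 single livers, with 4 input controls. Reads were aligned with Bowtie2 2.3.2 to mm9 and peaks called with MACS2, per the submitters' processing notes; the MACS2 version was not given in the sources used. The authors deposited 1 peak list per library, with position and name only, so no score, height or read depth was available. Peaks overlapping by 1 bp or more were merged over the 42 lists with Python 3.11.15 (numpy 2.4.6, pandas 2.3.3, scipy 1.17.1). Presence per liver was compared by two-sided Fisher's exact tests, and peak numbers and width percentiles by two-sided exact permutation tests, each run over all regions, or all genome windows of that width, with Benjamini-Hochberg adjustment. The code was tested on simulated data. Alternatives were a 100 bp overlap, equally long lists, removal of peaks over input peaks, vehicle livers alone, widths in bp, peaks per 10000 peaks, each liver left out, and same-numbered livers as pairs. Named regions were, per window, the 6 in the most lists and all that were gained, lost, different between times or different by 3 or more livers. The windows, members and lists were chosen with earlier results of these data known. No lists were copies of each other, since a pair within a group had identical positions for 0.0354% of its peaks or less.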

Additional observations from a re-analysis of the deposited data

Results flagged for a closer look

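Of 88 groups of 4 livers whose peak numbers or widths were checked, 10 held 1 liver whose gap to the nearest of the other 3 was most of the group's range. For continuous values chance gives this in about 1 in 20 groups, and 3 of the 10 are whole numbers of peaks that differ by 1, to which that rate does not apply. Of the numbers of peaks per window, the TCPOBOP liver D2 had 12 CEBPb peaks in the Nr1d1 window at 27 h, against 11 in each of the others. The TCPOBOP liver D1 had 3 CEBPa peaks in the Dbp window, against 4 in each of the others, and the vehicle liver C3 had 4 CEBPb peaks there, against 5.

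Among widths at 27 h, the TCPOBOP liver D4 had a CEBPb peak of 396 bp at Dbp region 3, where the others had 711 to 750 bp. At Dbp region 4 the RXR peak was 752 bp wide in the TCPOBOP liver D4, above 546 to 554 bp in the others, and 825 bp in the vehicle liver C4, above 349 to 413 bp. C4 also had the wide CEBPb peak of 624 bp at Nr1d1 region 11. The vehicle liver C1 stood apart at 2 Per1 regions, with a CEBPa peak of 221 bp and a CEBPb peak of 597 bp at region 17, and a CEBPb peak of 883 bp at region 21.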

How the results depend on the processing

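Gained and lost regions were few under each alternative. With lists of equal length the RXR count at 3 h was 0, and CEBPb at 27 h had 1, Per1 region 1, lost. Leaving out each liver gave 1 to 3 for RXR at 3 h (3 without the vehicle liver A1, adding Per1 region 6, lost, and region 18, gained), 0 to 1 for CEBPa at 3 h (Nr1d1 region 1, lost, without the vehicle liver A46), 0 to 1 for CEBPb at 3 h (Nr1d1 region 19, gained, without the vehicle liver A44) and 0 to 1 for RXR at 27 h (Per1 region 14, lost, without the TCPOBOP liver D4). With fewer livers the rule for gained or lost is met more readily, and shares over all regions under these settings are not given here. At Per1 region 14 the RXR difference at 27 h, -75 percent of livers, was 25 with lists of equal length. The count of 5 CEBPb differences between times was 5 to 6 with each liver left out. It was 0 with lists of equal length and 0 in vehicle livers alone. With equal lengths and in vehicle livers alone no CEBPb region of the whole series passed the threshold. Those counts of 0 therefore show nothing about the windows.

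Regions whose widths did not overlap numbered 0 for RXR and 1 for CEBPb at 3 h when measured in bp. Leaving out each liver gave 2 to 5 for RXR, 2 to 4 for CEBPa and 0 to 3 for CEBPb at 3 h, and 0 to 1, 1 to 2 and 0 to 3 for these at 27 h. Groups of fewer livers separate more readily. The shares over all regions were not computed in bp or with a liver left out, so these counts have no background. Peaks per window had the other sign per 10000 peaks of the list for CEBPa (0.182) and CEBPb (-0.193) at 27 h in the Nr1d1 window, for CEBPb at 3 h (-0.363) and 27 h (-0.271) in the Per1 window, and for CEBPa (0.00625) and CEBPb (-0.0772) at 27 h in the Dbp window. With each liver left out, differences in the Nr1d1 window spanned -1.33 to 0.667 for RXR, -2.17 to 0.333 for CEBPa and -0.167 to 1.33 for CEBPb at 3 h, and -0.917 to 0.0833 for CEBPa and -0.0833 to 0.917 for CEBPb at 27 h. In the Per1 window they spanned -0.833 to 0.167 for CEBPa and -0.833 to 1.67 for CEBPb at 3 h, and in the Dbp window -0.25 to 0.75 for RXR at 27 h. The causes were not tested.

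Same-numbered livers did not pair, since their deviations correlated at -0.0178 to 0.0459 over 21 pairs. With the replicate block the count of gained and lost regions was 1 for RXR at 3 h and 0 for each other comparison, and the block changed no call. The smallest p it allows is 0.25 with 3 pairs and 0.125 with 4. Depth is unknown, so a missing peak cannot be told apart from one below the threshold.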
